A study of Mus musculus with 15 samples.

Results

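The genes described here build and steer the vesicles that move between the endoplasmic reticulum and the Golgi. They were taken by gene name from the deposited expression table, where 40 of 40 listed names were found among the 55401 genes of the count matrix. All 40 passed the filter on low counts and were among the 18136 genes tested. By role they comprise 8 COPI coatomer subunits, 2 Arf GTPases, 9 COPII coat subunits, 5 COPII assembly genes, 9 cargo and retrieval receptors, 6 SNAREs and tethers, and 1 transcription factor. RNA of whole submandibular glands was sequenced in 15 mouse libraries, in 3 groups of 5. In the SJQYD group were NOD/LTJ mice treated with SJQYD, a name that the labels neither spell out nor give a dose or duration for. The model group was NOD/LTJ without treatment, an inbred strain prone to autoimmune inflammation of the salivary glands. The control group was ICR, an outbred stock, likewise without treatment. All 15 are labelled with the genotype WT, and the labels give no age. SJQYD and model mice share a strain, whereas model and control mice differ in strain, so that in comparisons with the control group disease cannot be told apart from strain. The labels do not say how the mice relate to each other, so that p-values measure the spread between these libraries.

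Secretory cells ship nearly all of their product through this route. COPII coats bud vesicles from exit sites of the endoplasmic reticulum: Sec12 (Preb) loads the GTPase Sar1, Sar1 recruits the inner layer of Sec23 and Sec24, which picks cargo, and Sec13 and Sec31 form the outer cage. COPI coats, recruited by Arf GTPases as a preassembled complex called coatomer, carry escaped residents and recycled machinery back. Cargo receptors fill the vesicles, tethers catch them, and SNARE proteins fuse them. Acinar cells of the submandibular gland, which make saliva proteins in bulk, depend on this traffic.

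Total counts per library ran from 39510018 to 68694263. Levels are normalised read counts (CPM) on the TMM-adjusted library size. The secretory transcript Mucl2 took 36.8% ± 12.3 of all counts in SJQYD, 37.3% ± 7.75 in model and 48.3% ± 5.08 in control libraries (SD, n = 5 each), with 15.5% in SJQYD 1 as the lowest single value. TMM factors ran from 0.594 in control 1 to 1.854 in SJQYD 1. All 5 submandibular acinus markers were found in all 3 groups, and their summed level was 98000 to 553000 CPM in SJQYD, 237000 to 521000 CPM in model and 462000 to 953000 CPM in control libraries. Mucl2 is 1 of the 5 and made up most of each sum, which is therefore not separate from its share of counts. Parotid markers summed to 7.39 to 35100 CPM in SJQYD, 206 to 133000 CPM in model and 87 to 41200 CPM in control libraries, and SJQYD 1, model 3 and control 2 were the richest of their groups. Sublingual markers summed to 81.7 to 39700 CPM in SJQYD, 3220 to 31800 CPM in model and 30.6 to 39800 CPM in control libraries. Their median sums were 22900, 7610 and 1360 CPM in that order, and those of parotid markers 362, 1680 and 3530 CPM. In SJQYD against model all 4 sublingual markers had log2 fold changes above 0 (median 0.92). All 4 parotid markers were below 0 (median -1.98), and edgeR called 0 in either list. Plasma cell markers summed to 1090 to 2470 CPM in SJQYD, 797 to 2350 CPM in model and 229 to 1270 CPM in control libraries. Xist was nearly absent from SJQYD 3 at 1.01 CPM, against 162 to 270 CPM elsewhere. In bulk tissue, fewer cells of a type and less RNA per cell cannot be told apart.

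Against untreated NOD glands, 10 of the 40 genes rose in SJQYD glands and 0 fell (25%), where 2.75% of all tested genes were called in either direction, 1.91% as higher and 0.838% as lower. They were the COPII genes Sec31a, Sec24a, Sec24c, Sec16a, Sar1a and Preb, the coatomer subunit Copg1, the receptors Lman1 and Kdelr2, and the Golgi SNARE Stx5a. The fold changes of the 10 ran from 0.41 to 1.06 on the log2 scale. Over the 40 genes the median log2 fold change was 0.38, beside -0.03 over all genes, and 37 of 40 values were above 0. The 5 SJQYD libraries did not overlap the 5 model libraries for 13 of the 40, all 13 higher in SJQYD, against 5.5% of all genes in either direction, 3.21% higher and 2.29% lower. Genes were called at a Benjamini-Hochberg adjusted p under 0.05 over all 18136 genes in the edgeR quasi-likelihood test, the source of each gene's adjusted p except where another tool is named. At an unadjusted p under 0.05 on the TMM scale, edgeR gave 1467 of all 18136 genes higher and 1469 lower in SJQYD against model. The counts were 2109 and 1859 in model against control, and 2426 and 2402 in SJQYD against control. They stand beside each edgeR count at that p on the TMM scale below, and those of other scalings and fits are not given. With total-count scaling the median was 0.53 and 39 of 40 values were above 0, but edgeR called 0 of the 40, with 21 higher and 0 lower at an unadjusted p under 0.05. Limma on log2(FPKM + 1) called 0 as well, with 15 higher and 0 lower at that p. Leaving out model 2 or model 5 brought the 10 calls to 6, and leaving out the 3 parotid-rich libraries brought them to 5, namely Copg1, Sec31a, Sec24a, Preb and Stx5a. With any 1 of the 15 libraries left out, 6 calls were kept, those of Copg1, Sec31a, Sec24a, Sec16a, Preb and Stx5a, whereas the calls of Sec24c, Sar1a, Lman1 and Kdelr2 were each lost without model 2, without model 5 and without several other NOD libraries, Kdelr2 also without control 3.

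Untreated NOD glands had 15 of the 40 genes lower than ICR glands and 0 higher (37.5%), where 5.07% of all tested genes were called in either direction, 2.57% as higher and 2.5% as lower. They were the coatomer subunits Copa, Copb2 and Arcn1, the GTPases Arf1, Arf4 and Sar1a, the COPII subunits Sec31a and Sec24a, the receptors Lman1, Mcfd2, Kdelr2 and Tmed10, the fusion genes Sec22b and Uso1, and the transcription factor Creb3l2. The median log2 fold change over the 40 genes was -0.47, beside 0.03 over all genes. When libraries were scaled by their total count it was 0.04 beside 0.52, so the sign of the median turned. The median of the 40 minus that of all genes was -0.50 on the TMM scale and -0.48 on the total count, but -0.28 in limma on log2(FPKM + 1) and -0.03 in the same fit without a filter on low values. A change of library scaling shifts all genes by nearly the same amount, so the TMM and total-count values could hardly differ. On the TMM scale 38 of 40 values were below 0, against 17 of 40 with total-count scaling, under which edgeR called 0 of the 40 and gave 1 higher and 0 lower at an unadjusted p under 0.05. Limma on log2(FPKM + 1) likewise called 0, with 1 higher and 1 lower at that p. Model and control libraries did not overlap for 6 genes, all 6 lower in model, against 5.77% of all genes in either direction, 3.05% higher and 2.71% lower. The number of calls ran from 4 without control 1 to 23 without control 2. It was also more than 1.5 times lower without control 3 (9), control 4 (7), model 1 (7), model 2 (5), model 3 (8), model 5 (7) or SJQYD 4 (9). Arf4, Lman1, Mcfd2 and Sec22b were called with any 1 library left out, and the other 11 calls were all lost without control 1.

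Set against ICR glands, SJQYD glands had 5 of the 40 genes higher and 3 lower (20%), where 11.1% of all tested genes were called, 5.22% higher and 5.9% lower. Sec24a, Sec24c, Sec16a, Preb and Stx5a were the higher ones, and Arf4, Mcfd2 and Tmed10 the lower ones. The median over the 40 genes was -0.12, beside 0.04 over all genes, and these became 0.53 and 0.63 with total-count scaling. Under that scaling 15 of the 40 were called higher and 0 lower, where 4679 of all 18136 tested genes were called, 4579 of them higher. The groups did not overlap for 3 genes higher in SJQYD (Sec24c, Preb and Stx5a) and 2 lower (Mcfd2 and Tmed10), against 10.1% of all genes. Without control 1, control 3, control 5, model 1, SJQYD 1, SJQYD 3 or SJQYD 4, 5 calls were made, and the most were 12 without control 2. Sec24c, Preb, Stx5a, Mcfd2 and Tmed10 were called with any 1 library left out, whereas Arf4, Sec24a and Sec16a were lost in each of those 7 cases, Arf4 and Sec24a in further ones, and had adjusted p of 0.0675, 0.0842 and 0.0651 with the sublingual level as a covariate. The 3 comparisons share libraries, the first pair the model libraries, and their values are therefore set side by side without a test of overlap.

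**Figure D1:**
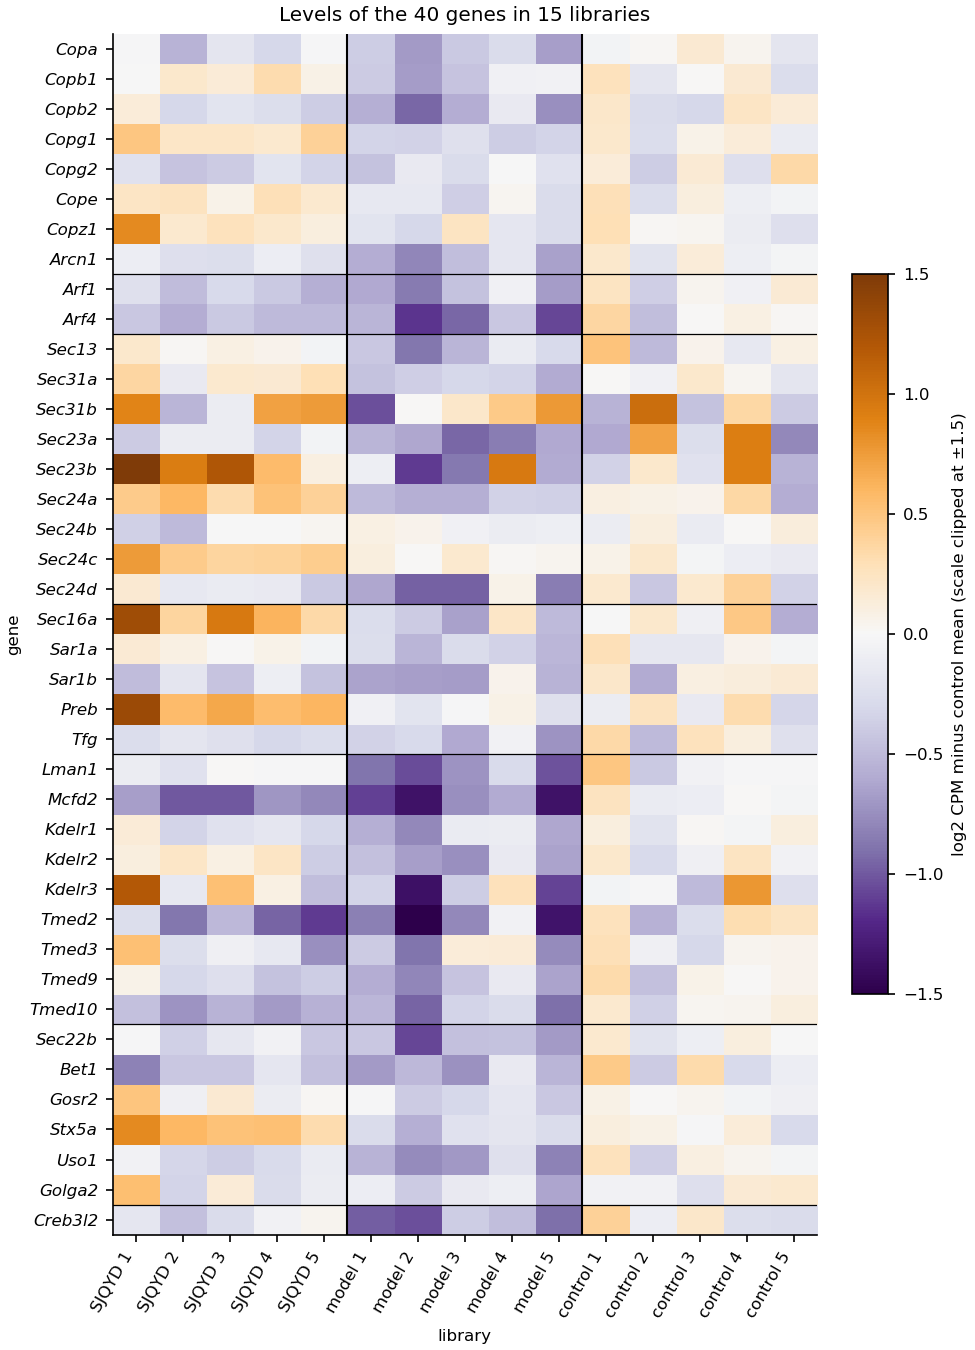
Levels of the 40 genes (down the page, by role) in the 15 libraries (across), as log2 CPM on the TMM scale minus the mean of the 5 control libraries, with the colour scale clipped at 1.5 in either direction. Model columns are mostly below 0, with a median over the 40 genes of -0.67 in model 2 and -0.13 in model 4, whereas SJQYD columns have medians between -0.20 and 0.13; with total-count scaling the model against control median is 0.04.

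**Figure D2:**
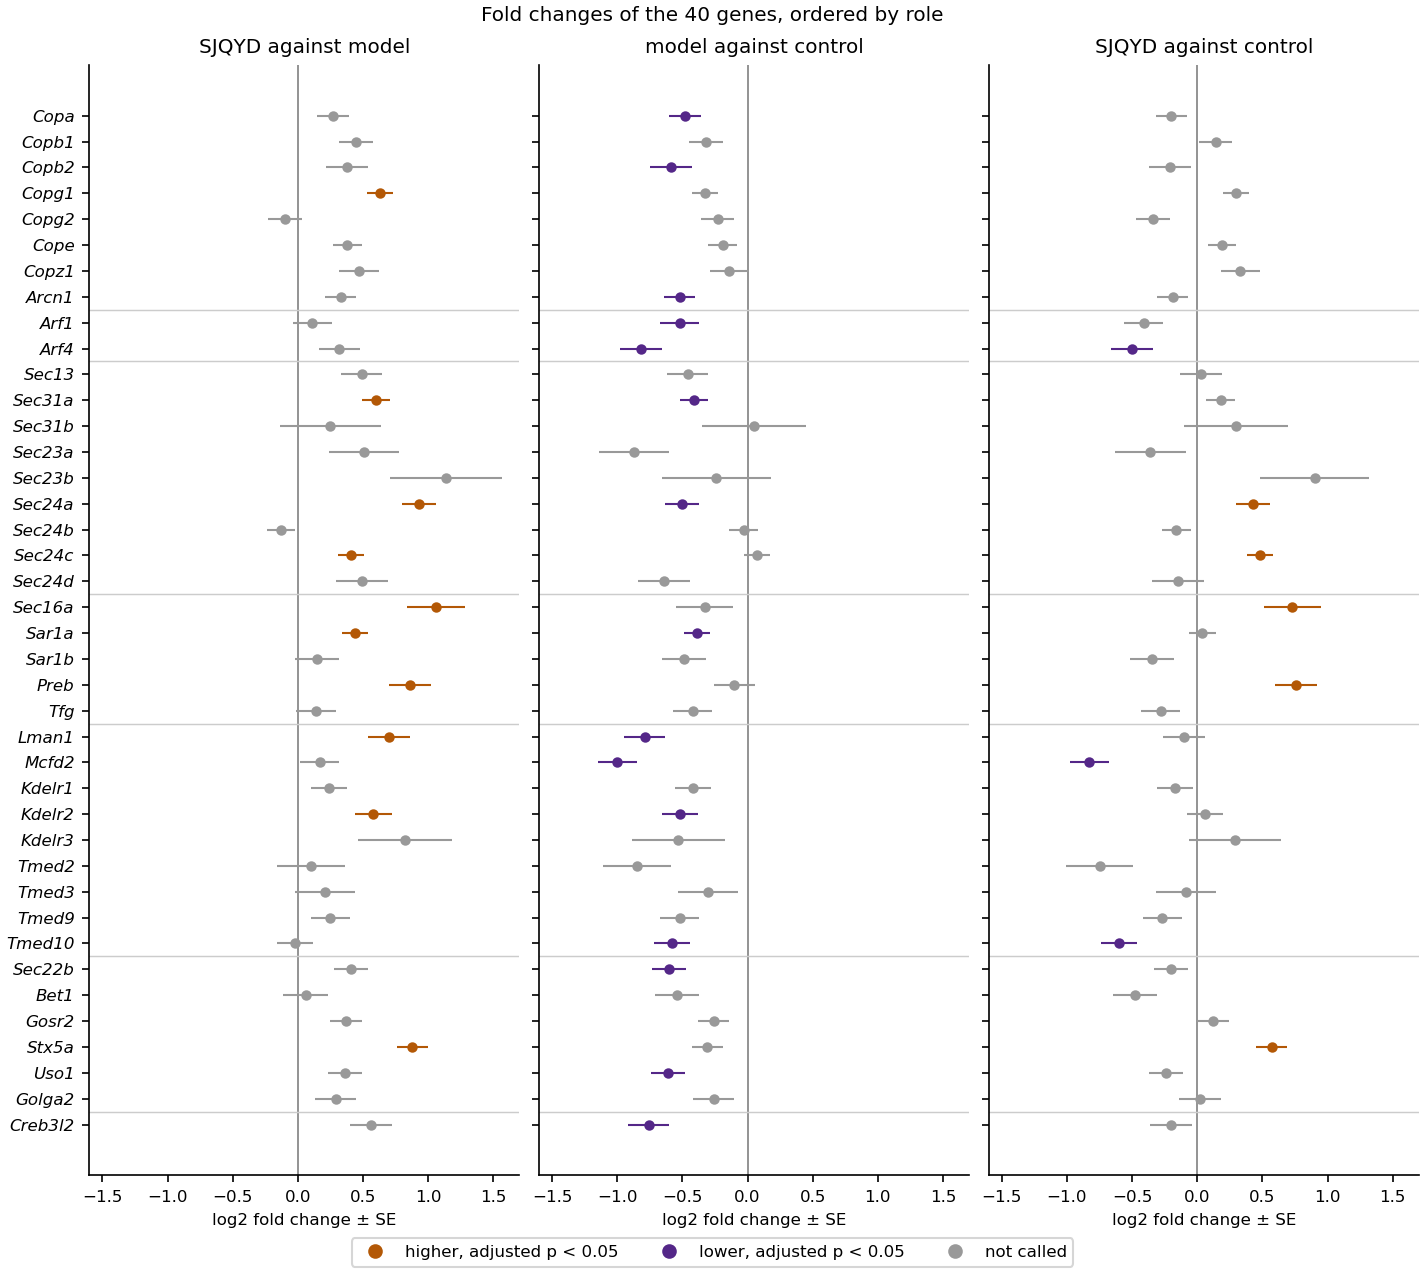
Log2 fold changes with their SE for the 40 genes in each comparison, from the edgeR fit with TMM scaling, with genes called at an adjusted p under 0.05 in colour. The 10 called genes of SJQYD against model lie to the right of 0, the 15 of model against control to the left, and those of SJQYD against control on both sides; Copa, Sec31a and Sar1a of the 15 and Arf4 and Tmed10 of the last set change sign with total-count scaling.

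Promoters were read for 36 of the 40 genes from RefSeq (GRCm38.p6), as windows of 250 bases before to 50 bases after the gene start, and searched on both strands. The letters TGACGTG, the core bound by factors of the unfolded protein response, stood in 7 of 36 genes (19.4%), against 2.22% of 27025 genes. A gene was counted when any of its windows held the letters. The 27025 genes were not matched to the 40 in base composition or expression. For each of the 7 genes, the 60 bases around 1 match are printed here because this is the motif held by the most members. Stx5a held a second match, at chr19:8741463-8741469, which is not printed. Capitals mark the motif, which reads CACGTCA where it lies on the other strand.
Copb1, chr7:114254674-114254733, minus strand: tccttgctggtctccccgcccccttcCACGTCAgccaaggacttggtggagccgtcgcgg
Copb2, chr9:98563696-98563755, plus strand: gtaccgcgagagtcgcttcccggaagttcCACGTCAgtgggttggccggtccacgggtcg
Arf1, chr11:59228213-59228272, minus strand: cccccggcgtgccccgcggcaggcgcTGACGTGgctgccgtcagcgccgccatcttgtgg
Sec23a, chr12:59011993-59012052, minus strand: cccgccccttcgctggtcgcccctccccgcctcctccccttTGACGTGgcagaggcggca
Sec24d, chr3:123267444-123267503, plus strand: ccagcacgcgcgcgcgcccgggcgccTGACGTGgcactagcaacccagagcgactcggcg
Kdelr3, chr15:79516353-79516412, plus strand: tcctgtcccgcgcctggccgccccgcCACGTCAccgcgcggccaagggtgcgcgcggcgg
Stx5a, chr19:8741389-8741448, plus strand: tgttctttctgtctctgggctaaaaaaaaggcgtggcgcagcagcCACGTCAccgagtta
Of these 7 genes, Stx5a was called in SJQYD against model, and Copb2 and Arf1 in model against control. The E-box CACGTG was in 4 of 36 genes (11.1%), namely Sar1a, Mcfd2, Tmed10 and Uso1, a share near the 8.09% of all genes. All 4 were among the 12 genes with a window that were called lower in model than in control glands. Of the 8 genes with a window called in SJQYD against model, 1 held it. Among the 8 called in SJQYD against control, 2 did. The E-box share among all genes lower in model was not counted. The stretches of Mcfd2 and Tmed10 are printed because these genes had both NOD groups below the control group, with the E-box in capitals.
Mcfd2, chr17:87265988-87266047, minus strand: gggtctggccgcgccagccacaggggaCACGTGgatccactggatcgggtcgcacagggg
Tmed10, chr12:85374696-85374755, minus strand: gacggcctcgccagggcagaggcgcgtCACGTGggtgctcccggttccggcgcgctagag
The cyclic AMP response element TGACGTCA was in 2 of 36 genes (5.56%), Cope and Gosr2, against 2.03% of all genes. The longer stress response elements ERSE and ERSE-II were in 0 of 36 genes, against 0.137% and 0.0444% of all genes, and the D-box TTATGTAA in 0 of 36, against 1.11%. Of these matches 0 overlapped. A match describes letters in the window and does not show that a factor binds there.

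Among the COPII assembly genes, 3 of 5 rose in SJQYD against model, 1 of 5 fell in model against control, and 2 of 5 were higher in SJQYD than in control glands. Over all tested genes 2.75%, 5.07% and 11.1% were called in these comparisons, shares that stand beside the counts of every role group below. Preb (ENSMUSG00000045302, chr5:30950853-30960361, minus strand), the membrane-bound exchange factor that activates Sar1, had 139, 82.3, 89.0, 81.9 and 84.4 CPM in SJQYD 1 to 5, 53.2, 48.4, 54.7, 58.5 and 47.3 CPM in model 1 to 5, and 51.3, 66.2, 50.4, 69.1 and 44.3 CPM in control 1 to 5. Every SJQYD library stood above every model and every control library, and SJQYD 1 stood apart at the top. The log2 fold change was 0.86 ± 0.16 (SE, adjusted p = 0.00764) against model and 0.76 ± 0.16 (SE, adjusted p = 0.00655) against control, whereas model against control gave -0.10 ± 0.16 (SE, adjusted p = 0.759). Sec16a (ENSMUSG00000026924, chr2:26409431-26445214, minus strand), the scaffold of exit sites, had 163, 86.1, 128, 101 and 84.1 CPM in SJQYD 1 to 5, 54.9, 50.5, 41.9, 76.4 and 46.7 CPM in model 1 to 5, and 65.7, 75.5, 62.5, 91.5 and 44.2 CPM in control 1 to 5. SJQYD libraries lay above all model libraries but overlapped the control libraries, through control 4. Sec16a rose by 1.06 ± 0.22 (SE, adjusted p = 0.014) on the log2 scale against model and by 0.73 ± 0.22 (SE, adjusted p = 0.0398) against control.

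The Sec16a levels went along with sublingual markers inside the groups in many libraries but not in all. SJQYD 1 and SJQYD 3, the highest for Sec16a, held 39700 and 37900 CPM of summed sublingual markers, model 4 held 31800 CPM and control 4 held 39800 CPM, and SJQYD 1, model 4 and control 4 were the highest of their groups on both measures. SJQYD 5 held 81.7 CPM of sublingual markers and 84.1 CPM of Sec16a, the least of its group on both measures. Model 1 (18400 CPM of sublingual markers) came next after model 4 on both. Control 2 (19300 CPM) and then control 1 (1360 CPM) came next after control 4 on both. Among other libraries the orders differed in part. Model 2 held the least sublingual markers of its group, 3220 CPM, but more Sec16a than model 3 (7610 CPM of sublingual markers) and model 5 (6450 CPM). SJQYD 2 (22900 CPM) had less Sec16a than SJQYD 4 (16600 CPM), and control 3 (30.6 CPM) had more than control 5 (455 CPM). With the sublingual level as a covariate, an alternative added after the data were seen, Sec16a rose by 1.06 (adjusted p = 0.0038) against model, and the difference from control was 0.57 (adjusted p = 0.0651).

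Sar1a (ENSMUSG00000020088, chr10:61680299-61693297, plus strand), the GTPase that starts a COPII coat, had 106, 101, 95.0, 98.9 and 92.4 CPM in SJQYD 1 to 5, 79.7, 65.6, 78.1, 74.7 and 66.3 CPM in model 1 to 5, and 116, 84.9, 85.2, 98.6 and 93.1 CPM in control 1 to 5. Model libraries lay below all SJQYD and all control libraries, and SJQYD and control libraries overlapped. The log2 fold change was 0.44 ± 0.10 (SE, adjusted p = 0.0309) in SJQYD against model and -0.39 ± 0.10 (SE, adjusted p = 0.0392) in model against control, the second turning to 0.13 with total-count scaling. Sar1b, its paralogue, and Tfg, which organises exit sites, were not called by edgeR or DESeq2 in any comparison, with log2 fold changes of 0.15 and 0.14 in SJQYD against model and -0.49 and -0.42 in model against control. Sar1b lies head to head with the coat gene Sec24a, at chr11:51763687-51791925 on the plus strand.

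COPII coat subunits rose in SJQYD against model for 3 of 9 genes and fell in model against control for 2 of 9. They were higher in SJQYD than control glands for 2 of 9, where 11.1% of all genes were called. Sec24a (ENSMUSG00000036391, chr11:51692264-51763634, minus strand), an inner-coat subunit that binds cargo, had 29.0, 32.02, 26.6, 30.5 and 28.2 CPM in SJQYD 1 to 5, 15.0, 14.4, 14.3, 16.7 and 16.6 CPM in model 1 to 5, and 22.8, 22.4, 22.0, 27.3 and 14.2 CPM in control 1 to 5. The lowest SJQYD library was above the highest model library, while control libraries spread over the range between, from below the model libraries in control 5 to the lower SJQYD levels in control 4. Sec24a rose by 0.93 ± 0.13 (SE, adjusted p = 0.00106) on the log2 scale against model and by 0.43 ± 0.13 (SE, adjusted p = 0.0474) against control, and model against control gave -0.50 ± 0.13 (SE, adjusted p = 0.0411). The last value was 0.01 on log2(FPKM + 0.1). Sec24c (ENSMUSG00000039367, chr14:20674308-20694852, plus strand), a paralogue with its own cargo preferences, had 92.4, 75.4, 71.4, 72.0 and 74.4 CPM in SJQYD 1 to 5, 59.4, 55.1, 62.5, 55.6 and 56.7 CPM in model 1 to 5, and 57.5, 63.0, 53.7, 51.3 and 50.1 CPM in control 1 to 5. All 5 SJQYD libraries were above all 10 others, and model and control libraries were intermixed. Its log2 fold change was 0.41 ± 0.10 (SE, adjusted p = 0.0293) against model and 0.48 ± 0.10 (SE, adjusted p = 0.00548) against control.

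Sec31a (ENSMUSG00000035325, chr5:100361649-100416234, minus strand), the main subunit of the outer cage, had 134, 94.5, 117, 116 and 128 CPM in SJQYD 1 to 5, 75.7, 79.9, 83.6, 82.4 and 68.6 CPM in model 1 to 5, and 104, 99.3, 119, 106 and 91.6 CPM in control 1 to 5. Model libraries were below all others, and SJQYD and control libraries overlapped. Sec31a rose by 0.60 ± 0.11 (SE, adjusted p = 0.00735) on the log2 scale in SJQYD against model and fell in model against control, at -0.41 ± 0.11 (SE, adjusted p = 0.0381). The fall became 0.09 with total-count scaling.

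Sec23a (ENSMUSG00000020986, chr12:58958383-59012017, minus strand) and Sec23b (ENSMUSG00000027429, chr2:144556229-144590749, plus strand) are alternative forms of the subunit that spurs GTP hydrolysis by Sar1. Sec23a had 6.18, 7.57, 7.53, 6.48 and 7.91 CPM in SJQYD 1 to 5, 5.61, 5.32, 4.25, 4.55 and 5.38 CPM in model 1 to 5, and 5.37, 13.3, 6.82, 15.4 and 4.75 CPM in control 1 to 5. It was low everywhere, with control 2 and control 4 at more than 13 CPM, and SJQYD libraries lay above all model libraries without passing the test, at 0.51 ± 0.27 (SE, adjusted p = 0.379) on the log2 scale. Model against control gave -0.87 ± 0.27 (SE, adjusted p = 0.0717) in edgeR, where DESeq2 called it lower (adjusted p = 0.0253). Sec23b had 116, 67.9, 82.6, 52.7 and 38.2 CPM in SJQYD 1 to 5, 33.4, 16.4, 19.6, 69.2 and 23.6 CPM in model 1 to 5, and 28.1, 40.7, 30.6, 67.2 and 24.4 CPM in control 1 to 5. Its spread inside groups was wide, with SJQYD 1, model 4 and control 4, the libraries with the most sublingual markers in their groups, at the top of each. Sec23b did not pass in SJQYD against model, at 1.14 ± 0.43 (SE, adjusted p = 0.191) on the log2 scale, nor in model against control, at -0.24 ± 0.42 (SE, adjusted p = 0.796), nor in SJQYD against control, at 0.90 ± 0.42 (SE, adjusted p = 0.193). The part of sublingual tissue in these levels was not tested for Sec23b.

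The other COPII coat subunits, Sec13, Sec31b, Sec24b and Sec24d, were not called by edgeR in any comparison. DESeq2 called Sec24d lower in model against control (adjusted p = 0.0342). Their log2 fold changes ran from -0.13 in Sec24b to 0.49 in Sec24d and Sec13 for SJQYD against model, and from -0.64 in Sec24d to 0.05 in Sec31b for model against control. SJQYD libraries did not overlap model libraries for Sec13, at 44.6 to 52.8 CPM in SJQYD and 25.2 to 42.2 CPM in model libraries. Sec31b, the minor cage form, was near the limit of measurement, at 0.65 to 1.73 CPM in SJQYD, 0.46 to 1.60 CPM in model and 0.644 to 1.93 CPM in control libraries.

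Of the 8 coatomer subunits, 1 rose in SJQYD against model and 3 fell in model against control, and 0 were called in SJQYD against control, where edgeR gave 2 subunits higher and 1 lower at an unadjusted p under 0.05 and DESeq2 called 1. Copg1 (ENSMUSG00000030058, chr6:87887814-87913595, plus strand), the gamma subunit that contacts Arf and cargo, had 82.7, 68.6, 68.7, 67.2 and 78.1 CPM in SJQYD 1 to 5, 47.0, 46.5, 50.3, 45.4 and 46.9 CPM in model 1 to 5, and 67.3, 49.1, 61.6, 64.7 and 54.4 CPM in control 1 to 5. Model libraries were tightly grouped, and all lay below every SJQYD library. Copg1 rose by 0.63 ± 0.10 (SE, adjusted p = 0.0029) on the log2 scale against model, and model against control gave -0.33 ± 0.10 (SE, adjusted p = 0.0684) in edgeR, where DESeq2 called it lower (adjusted p = 0.0224). Copa (ENSMUSG00000026553, chr1:172082529-172122325, plus strand), the alpha subunit, which binds retrieval signals, had 79.7, 55.1, 71.1, 65.0 and 79.7 CPM in SJQYD 1 to 5, 62.0, 50.0, 60.6, 66.3 and 51.1 CPM in model 1 to 5, and 78.4, 81.5, 90.6, 82.7 and 70.8 CPM in control 1 to 5. All control libraries were above all model libraries. Copa fell in model against control, at -0.48 ± 0.12 (SE, adjusted p = 0.03) on the log2 scale, a value that was 0.02 with total-count scaling, and SJQYD against model gave 0.27 ± 0.12 (SE, adjusted p = 0.262).

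Arcn1 (ENSMUSG00000032096, chr9:44741564-44767845, minus strand), the delta subunit, had 81.1, 73.2, 72.5, 81.0 and 73.9 CPM in SJQYD 1 to 5, 57.9, 50.2, 62.5, 77.2 and 55.0 CPM in model 1 to 5, and 98.9, 74.96, 95.3, 81.6 and 84.5 CPM in control 1 to 5. Model 4 reached the level of control 2, and the other model libraries were below all control and SJQYD libraries. Its log2 fold change was -0.52 ± 0.12 (SE, adjusted p = 0.0183) in model against control and 0.33 ± 0.12 (SE, adjusted p = 0.147) in SJQYD against model. Copb2, the beta-prime subunit, averaged 54.3 ± 8.01 CPM in SJQYD, 41.8 ± 9.07 CPM in model and 62.7 ± 11.2 CPM in control glands (SD, n = 5 each), and fell in model against control at -0.59 ± 0.16 (SE, adjusted p = 0.0392). The remaining subunits, Copb1, Copg2, Cope and Copz1, were not called by edgeR in any comparison. DESeq2 called Copb1 (adjusted p = 0.0253), Cope (adjusted p = 0.0171) and Copz1 (adjusted p = 0.044) higher in SJQYD against model. SJQYD libraries did not overlap model libraries for Copb1 and Cope. Their log2 fold changes ran from -0.10 in Copg2 to 0.47 in Copz1 for SJQYD against model and from -0.32 in Copb1 to -0.14 in Copz1 for model against control.

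Both Arf GTPases fell in model against control, and 0 of 2 were called in SJQYD against model, where neither had an unadjusted p under 0.05 in edgeR and DESeq2 called 0. Arf4 (ENSMUSG00000021877, chr14:26638074-26657258, plus strand), which acts at the early Golgi together with Arf1, had 98.3, 87.5, 98.9, 93.1 and 92.8 CPM in SJQYD 1 to 5, 90.8, 59.1, 67.9, 98.1 and 62.2 CPM in model 1 to 5, and 169, 94.4, 132, 139 and 133 CPM in control 1 to 5. Model libraries were below the control libraries except for model 4, which stood above control 2, and SJQYD libraries lay close together at the level of control 2. Arf4 fell in model against control at -0.82 ± 0.16 (SE, adjusted p = 0.00883) and in SJQYD against control at -0.50 ± 0.16 (SE, adjusted p = 0.0497) on the log2 scale, the second becoming 0.15 with total-count scaling. Arf1, the GTPase that recruits coatomer, averaged 91.8 ± 8.77 CPM in SJQYD, 85.1 ± 18.6 CPM in model and 122 ± 19.0 CPM in control glands (SD, n = 5 each), with a log2 difference of -0.52 ± 0.15 (SE, adjusted p = 0.0497) in model against control.

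Cargo and retrieval receptors fell in model against control for 4 of 9 genes and rose in SJQYD against model for 2 of 9. They were lower in SJQYD than control glands for 2 of 9, where 11.1% of all genes were called. Mcfd2 (ENSMUSG00000024150, chr17:87254443-87265935, minus strand), the calcium-binding partner of the cargo lectin Lman1, had 70.9, 56.0, 56.0, 68.7 and 65.3 CPM in SJQYD 1 to 5, 52.3, 44.0, 67.2, 74.4 and 43.9 CPM in model 1 to 5, and 134, 103, 104, 113 and 109.7 CPM in control 1 to 5. All 10 libraries of NOD mice lay below all 5 control libraries, and SJQYD and model libraries overlapped. Mcfd2 fell in model against control at -0.9996 ± 0.15 (SE, adjusted p = 0.00168) and in SJQYD against control at -0.83 ± 0.15 (SE, adjusted p = 0.00249) on the log2 scale, and SJQYD against model gave 0.17 ± 0.15 (SE, adjusted p = 0.634). Lman1 (ENSMUSG00000041891), the lectin that ferries glycoproteins in a complex with Mcfd2, had 94.7, 87.9, 103, 101 and 101 CPM in SJQYD 1 to 5, 55.3, 49.7, 62.1, 83.7 and 50.3 CPM in model 1 to 5, and 143, 77.6, 98.6, 101 and 101 CPM in control 1 to 5. Every SJQYD library was above every model library, and SJQYD and control libraries overlapped. Lman1 rose by 0.70 ± 0.16 (SE, adjusted p = 0.0254) on the log2 scale in SJQYD against model and fell in model against control at -0.79 ± 0.16 (SE, adjusted p = 0.0111). Between the partners, Lman1 had a log2 fold change of -0.10 and Mcfd2 of -0.83 in SJQYD against control.

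Tmed10 (ENSMUSG00000021248, chr12:85340614-85374847, minus strand), a Golgi cargo receptor of the emp family that also helps to form COPI vesicles, had 69.4, 58.0, 65.7, 59.5 and 65.2 CPM in SJQYD 1 to 5, 66.6, 49.4, 76.0, 79.2 and 51.0 CPM in model 1 to 5, and 108, 74.8, 97.2, 98.4 and 103 CPM in control 1 to 5. Control libraries were above all SJQYD libraries, and model 3 and model 4 overlapped control 2. Its log2 fold change was -0.58 ± 0.14 (SE, adjusted p = 0.0261) in model against control and -0.60 ± 0.14 (SE, adjusted p = 0.0121) in SJQYD against control, the second being 0.05 with total-count scaling, and -0.02 ± 0.14 (SE, adjusted p = 0.971) in SJQYD against model. Its pseudogene Tmed10-ps reached at most 2.51 CPM. Tmed2, Tmed3 and Tmed9, of the same family, were not called by edgeR. DESeq2 called Tmed2 (adjusted p = 0.0154) and Tmed9 (adjusted p = 0.0167) lower in model against control and Tmed2 lower in SJQYD against control (adjusted p = 0.0293). They had log2 fold changes from 0.10 in Tmed2 to 0.25 in Tmed9 for SJQYD against model and from -0.85 in Tmed2 to -0.30 in Tmed3 for model against control.

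The 3 KDEL receptors return escaped chaperones from the Golgi. Kdelr2 (ENSMUSG00000079111, chr5:143403838-143421901, plus strand) had 58.3, 62.7, 57.0, 62.9 and 41.4 CPM in SJQYD 1 to 5, 39.0, 34.0, 32.1, 49.2 and 34.7 CPM in model 1 to 5, and 61.3, 43.7, 51.2, 63.4 and 51.8 CPM in control 1 to 5. SJQYD 5 lay far below the other SJQYD libraries and inside the range of the model libraries, where model 4 was the highest. Kdelr2 rose in SJQYD against model, at 0.58 ± 0.14 (SE, adjusted p = 0.0395) on the log2 scale, and fell in model against control, at -0.52 ± 0.14 (SE, adjusted p = 0.0466). Kdelr1 (ENSMUSG00000002778, chr7:45872772-45883732, plus strand) had 71.0, 51.0, 55.2, 57.0 and 51.7 CPM in SJQYD 1 to 5, 43.5, 37.4, 59.2, 59.3 and 41.9 CPM in model 1 to 5, and 69.5, 55.8, 65.2, 62.9 and 69.2 CPM in control 1 to 5. Its groups overlapped in both comparisons with the model group, and edgeR did not call it, at 0.24 ± 0.14 (SE, adjusted p = 0.415) in SJQYD against model and -0.42 ± 0.14 (SE, adjusted p = 0.0876) in model against control, where DESeq2 did (adjusted p = 0.0433). Kdelr3 (ENSMUSG00000010830, chr15:79516411-79527739, plus strand) had 29.5, 11.7, 18.7, 13.7 and 9.31 CPM in SJQYD 1 to 5, 10.3, 5.02, 9.95, 15.6 and 6.09 CPM in model 1 to 5, and 12.6, 12.8, 9.16, 22.2 and 10.9 CPM in control 1 to 5. SJQYD 1, model 4 and control 4 were the highest of their groups, as they were for sublingual markers. Kdelr3 was not called by edgeR or DESeq2, at 0.82 ± 0.36 (SE, adjusted p = 0.266) in SJQYD against model and -0.53 ± 0.36 (SE, adjusted p = 0.42) in model against control. It overlaps Ddx17, which averaged 242 CPM against 13.2 CPM for Kdelr3, on the opposite strand, and since the use of strand in the counting is not given in the sources used here its level is uncertain. The same holds for Golga2, which averaged 41.7 CPM and overlaps Swi5 at 48.1 CPM. Called genes also overlap genes on the opposite strand, at lower levels than their own. Copa (69.6 CPM) overlaps Ncstn at 14.7 CPM, Uso1 (61 CPM) Gm15710 at 16.2 CPM and Preb (68 CPM) Abhd1 at 5.7 CPM. Arf4 and Sec24c overlap genes at 3.98 and 1.59 CPM. The part of these overlaps in the counts was not tested.

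Of the 6 SNAREs and tethers, 2 fell in model against control and 1 rose in SJQYD against model. In SJQYD against control 1 was higher, where 11.1% of all genes were called. Stx5a (ENSMUSG00000010110, chr19:8741413-8756069, plus strand), the syntaxin through which vesicles fuse with the early Golgi, had 92.3, 77.0, 73.7, 74.2 and 64.1 CPM in SJQYD 1 to 5, 42.2, 34.5, 43.9, 45.0 and 42.3 CPM in model 1 to 5, and 55.2, 53.7, 50.6, 56.0 and 41.6 CPM in control 1 to 5. All 5 SJQYD libraries were above all 10 others, and model and control libraries overlapped. With a log2 difference of 0.88 ± 0.12 (SE, adjusted p = 0.000555) against model, it had the smallest adjusted p of the 40 genes, and it was also higher than in control glands, at 0.57 ± 0.12 (SE, adjusted p = 0.00559). Model against control gave -0.31 ± 0.12 (SE, adjusted p = 0.128). Sec22b (ENSMUSG00000027879, chr3:97901190-97923276, plus strand), the vesicle SNARE that pairs with syntaxin, had 36.5, 28.8, 33.1, 35.7 and 27.7 CPM in SJQYD 1 to 5, 27.7, 17.6, 26.8, 27.1 and 23.1 CPM in model 1 to 5, and 42.0, 32.2, 35.0, 40.04 and 36.7 CPM in control 1 to 5. Control libraries were above all model libraries, and SJQYD libraries overlapped both groups. Sec22b fell in model against control at -0.60 ± 0.13 (SE, adjusted p = 0.015) on the log2 scale, and SJQYD against model gave 0.41 ± 0.13 (SE, adjusted p = 0.11).

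Uso1 (ENSMUSG00000029407, chr5:92137938-92202798, plus strand), the long tether that holds vesicles at the Golgi, had 69.6, 57.9, 55.5, 59.4 and 66.3 CPM in SJQYD 1 to 5, 49.8, 42.7, 44.8, 61.9 and 41.1 CPM in model 1 to 5, and 86.9, 56.3, 77.4, 74.4 and 70.8 CPM in control 1 to 5. Model 4 was above control 2, and the other model libraries were below all SJQYD and control libraries. Its log2 fold change was -0.61 ± 0.13 (SE, adjusted p = 0.0161) in model against control and 0.36 ± 0.13 (SE, adjusted p = 0.166) in SJQYD against model. Bet1, Gosr2 and Golga2, a pair of SNAREs and a Golgi matrix protein, were not called by edgeR. DESeq2 called Bet1 lower in model against control (adjusted p = 0.0368). They had log2 fold changes from 0.06 in Bet1 to 0.37 in Gosr2 for SJQYD against model and from -0.54 in Bet1 to -0.26 in Gosr2 and Golga2 for model against control.

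Creb3l2 (ENSMUSG00000038648, chr6:37327255-37442146, minus strand) encodes a transcription factor held in the membrane of the endoplasmic reticulum and released by cleavage in the Golgi, known in mouse cartilage for driving Sec23a. It had 30.9, 25.2, 28.6, 33.4 and 35.8 CPM in SJQYD 1 to 5, 17.6, 16.9, 26.7, 24.9 and 18.4 CPM in model 1 to 5, and 45.9, 32.5, 40.1, 29.2 and 28.7 CPM in control 1 to 5. All control libraries were above all model libraries, and SJQYD libraries lay above the model libraries except for SJQYD 2, which was below model 3. Creb3l2 fell in model against control at -0.76 ± 0.16 (SE, adjusted p = 0.015) on the log2 scale, and SJQYD against model gave 0.56 ± 0.16 (SE, adjusted p = 0.0765). DESeq2 called it in the second comparison (adjusted p = 0.0232). Of the other 4 members of its family, 3 were tested and 0 were called by edgeR in any comparison, where 1 had an unadjusted p under 0.05 in model against control, and DESeq2 called that 1.

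**Figure D3:**
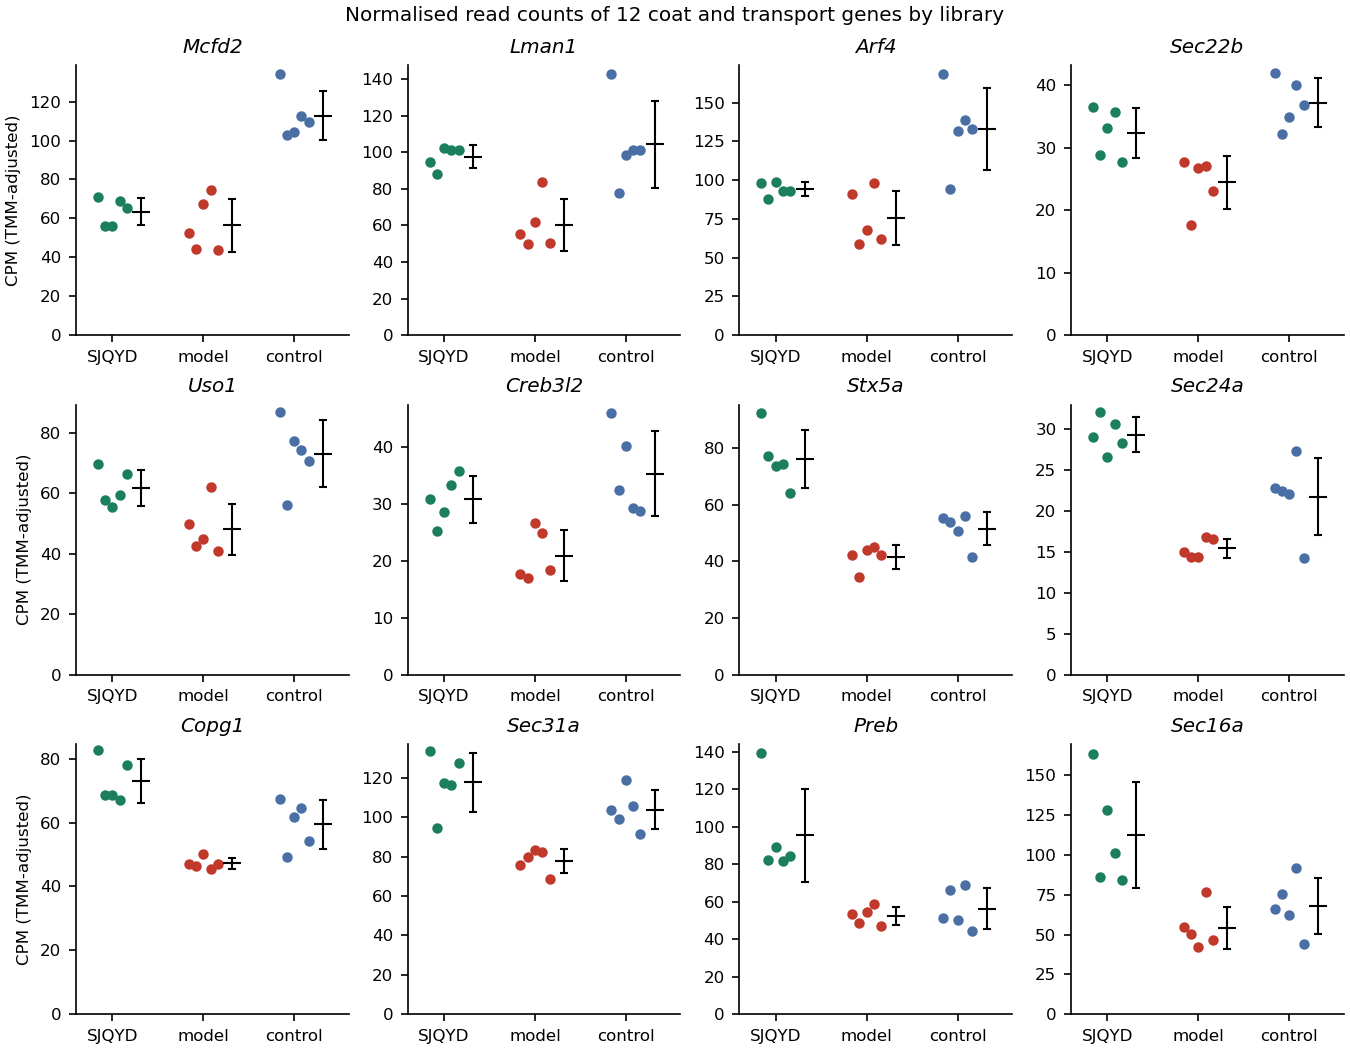
CPM on the TMM scale in each library for 12 of the genes, with SJQYD left, model in the middle and control right, one point per library and the mean with its SD beside the points. For Mcfd2 all 10 NOD libraries lie below the control libraries (at most 74.4 CPM, against at least 102.6 CPM), while for Stx5a and Preb all 5 SJQYD libraries lie above the rest; on total-count scaling Sec31a in model against control changes sign.

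Per length, the 40 genes covered a wide range. On the deposited FPKM scale, which counts per kilobase and per unit of depth, Arf1 was highest in all 3 groups, at 45.7 ± 18.7 FPKM in SJQYD, 38.2 ± 7.47 FPKM in model and 38.9 ± 3.49 FPKM in control glands (SD, n = 5 each). Sec31b was lowest, at 0.334 ± 0.207 FPKM in SJQYD, 0.245 ± 0.0734 FPKM in model and 0.191 ± 0.14 FPKM in control glands. Tmed3, the second in each group, lay within 1 SD of Arf1 in SJQYD and model glands. Among the cargo subunits of COPII, Sec24c had 12.8 ± 5.84 FPKM in SJQYD, 8.74 ± 1.63 FPKM in model and 6.01 ± 1.58 FPKM in control glands, and Sec24a had 2.79 ± 0.885 FPKM in SJQYD, 1.35 ± 0.14 FPKM in model and 1.40 ± 0.455 FPKM in control glands.

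Ratios between paralogues counted in the same library need no scaling. For 7 pairs, the mean log2 ratio was compared between groups with a two-sided exact permutation test of 5 against 5 libraries, in which 0.00794 is the smallest p possible, adjusted over the 7 pairs of a comparison. The ratio of Copg2 to Copg1, alternative gamma subunits of coatomer, was -2.70 ± 0.14 in SJQYD, -1.98 ± 0.20 in model and -2.09 ± 0.31 in control glands (SD, n = 5 each). All 5 SJQYD libraries, at -2.83 to -2.47, were below the 10 others, and the differences were -0.72 against model and -0.62 against control (exact permutation p = 0.00794, adjusted p = 0.0556 for each). With 7 pairs, 1 pair alone at the smallest possible p reaches an adjusted 0.0556 and could not pass at 0.05. In each comparison 0 pairs passed. The smallest p in model against control were for Sec24d to Sec24c, a difference of -0.74 (exact permutation p = 0.0317, adjusted p = 0.139), and Arf4 to Arf1, a difference of -0.30 (exact permutation p = 0.0397, adjusted p = 0.139). Sec23b to Sec23a differed by 1.10 between SJQYD and control glands (exact permutation p = 0.0238, adjusted p = 0.0694). Without model 1, 2 pairs passed in SJQYD against model, and without control 2, 3 pairs passed in SJQYD against control.

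Other genes of the same transport steps were followed in a list of 62, chosen by function. Of these 59 were tested, and 7 rose in SJQYD against model with 0 lower (11.9%, against 2.75% of all genes), at a median log2 fold change of 0.13. In model against control 5 fell and 1 rose (10.2%, against 5.07% of all genes), at a median of -0.14 that became 0.33 with total-count scaling, beside 0.52 over all genes. Gorasp1, which stacks Golgi cisternae, rose by 0.63 ± 0.10 (SE, adjusted p = 0.00196) in SJQYD against model, to 61.3 ± 3.68 CPM in SJQYD, against 39.5 ± 2.96 CPM in model glands (SD, n = 5 each). Yipf5, a Golgi membrane protein, rose by 0.79 ± 0.15 (adjusted p = 0.00927), and Arfgap3, which switches Arf off, by 0.75 ± 0.15 (adjusted p = 0.0117). The other 4 were Sec23ip (0.72 ± 0.15, adjusted p = 0.0138), which binds Sec23, the tether Golgb1 (0.61 ± 0.14, adjusted p = 0.0269), the collagen export receptor Mia3 (0.55 ± 0.13, adjusted p = 0.0293) and the SNARE Bet1l (0.61 ± 0.16, adjusted p = 0.0471).

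In model against control the genes that fell were Ergic1 (-0.92 ± 0.23, adjusted p = 0.0283), Scfd1 (-0.67 ± 0.17, adjusted p = 0.0303), Rab1a (-0.63 ± 0.17, adjusted p = 0.0458), Yipf5 (-0.62 ± 0.15, adjusted p = 0.0271) and Mia2 (-0.54 ± 0.15, adjusted p = 0.0451), and the SNARE gene Use1 rose (0.45 ± 0.11, adjusted p = 0.0327). Scfd1 regulates syntaxin and Rab1a is the GTPase that recruits tethers at this step. In SJQYD against control, 4 of the 59 were higher (Sec23ip, Use1, Golgb1 and Gorasp1) and 5 lower (Ergic1, Tmed7, Bcap31, Yif1a and Rab1a), or 15.3%, a share near the 11.1% of all genes. Bcap31, an export receptor, fell by 0.63 ± 0.10 (adjusted p = 0.00148), and Use1 rose by 0.51 ± 0.11 (adjusted p = 0.0101). Ergic1 was low in both NOD groups, at 45.6 ± 5.27 CPM in SJQYD and 46.7 ± 17.6 CPM in model, against 88.5 ± 23.2 CPM in control glands (SD, n = 5 each).

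A list of 16 clathrin coat genes, which serve the later route between Golgi, endosomes and plasma membrane, had 0 genes called in SJQYD against model and 0 in model against control, where 2.75% and 5.07% of all genes were called. At those shares few calls would arise in 16 genes. At an unadjusted p under 0.05 edgeR gave 3 genes higher in SJQYD against model, where 1467 of all 18136 genes were higher. It gave 2 lower in model against control, where 1859 of all genes were lower. DESeq2 called 1 and 0 of the list. Its median log2 fold changes were 0.01 and -0.05, and Ap2b1 was the 1 gene called in SJQYD against control, at -0.36 ± 0.11 (adjusted p = 0.0353). A list of 20 folding genes of the endoplasmic reticulum had 6 higher and 0 lower in SJQYD against model, with a median of 0.46, and 8 lower and 0 higher in model against control, with a median of -0.49 that became 0.03 with total-count scaling. Dnajb9, a co-chaperone induced under folding stress, rose by 1.35 ± 0.19 (adjusted p = 0.00082) in SJQYD against model. Hspa5, the main chaperone that KDEL receptors retrieve, fell in model against control at -0.87 ± 0.18 (adjusted p = 0.0114). In SJQYD against control 3 of the 20 were higher and 1 lower (20%), where 11.1% of all genes were called, with a median of -0.07.

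**Figure D4:**
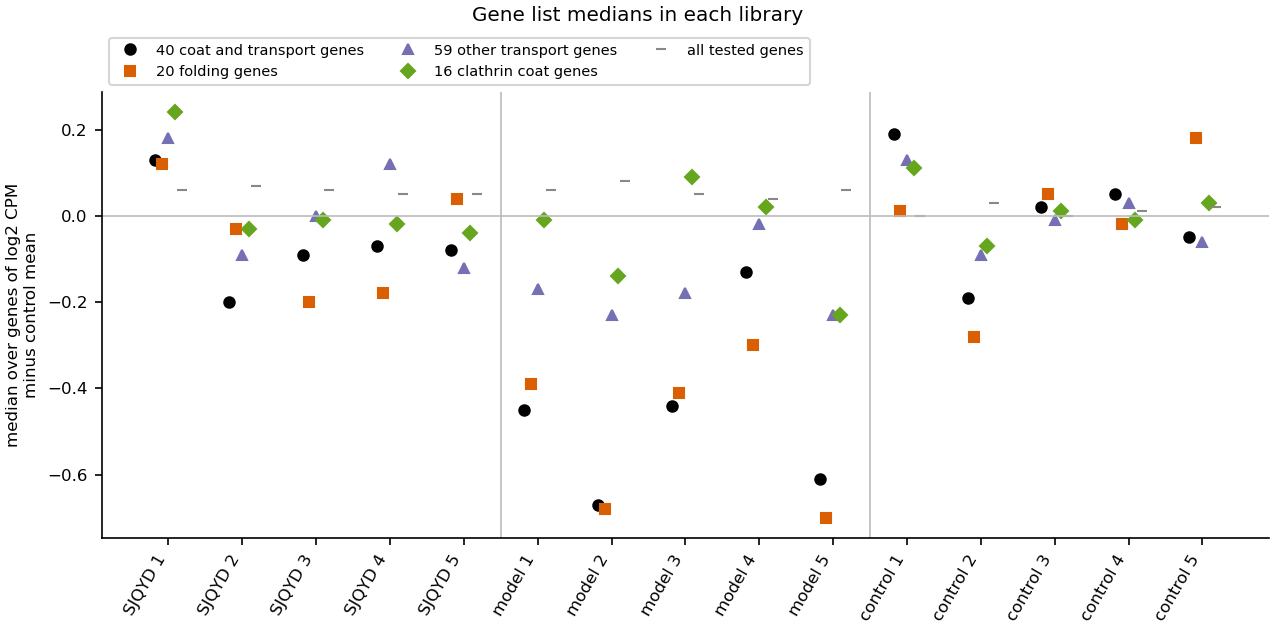
Median over the genes of each list of log2 CPM (TMM scale) minus the control mean, in each library. The 40 coat and transport genes and the 20 folding genes lie below 0 in all 5 model libraries (-0.67 to -0.13 and -0.70 to -0.30) and nearer to 0 in SJQYD libraries (-0.20 to 0.13 and -0.20 to 0.12), while 16 clathrin coat genes lie between -0.23 and 0.24 in both NOD groups; total-count scaling moves the model against control medians of the first pair to 0.04 and 0.03.

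The summed level of the 40 genes was 2350 ± 263 CPM in SJQYD, 1740 ± 267 CPM in model and 2400 ± 247 CPM in control glands (SD, n = 5 each) on the TMM scale. As a share of all counts they took 0.29% ± 0.131 in SJQYD, 0.193% ± 0.0336 in model and 0.187% ± 0.0252 in control glands. With Mucl2 left out of the total, an alternative chosen after the data were seen, the share was 0.443% ± 0.101 in SJQYD, 0.307% ± 0.0359 in model and 0.362% ± 0.0241 in control glands. The median of the 40 genes minus the median of all genes in model against control was -0.50 on the TMM scale, -0.49 with the total without Mucl2 and -0.48 with the total count. For SJQYD against model the same difference was 0.41, 0.42 and 0.45. Because a change of library scaling shifts all genes by nearly the same amount, these differences had to stay nearly unchanged.

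**Figure D5:**
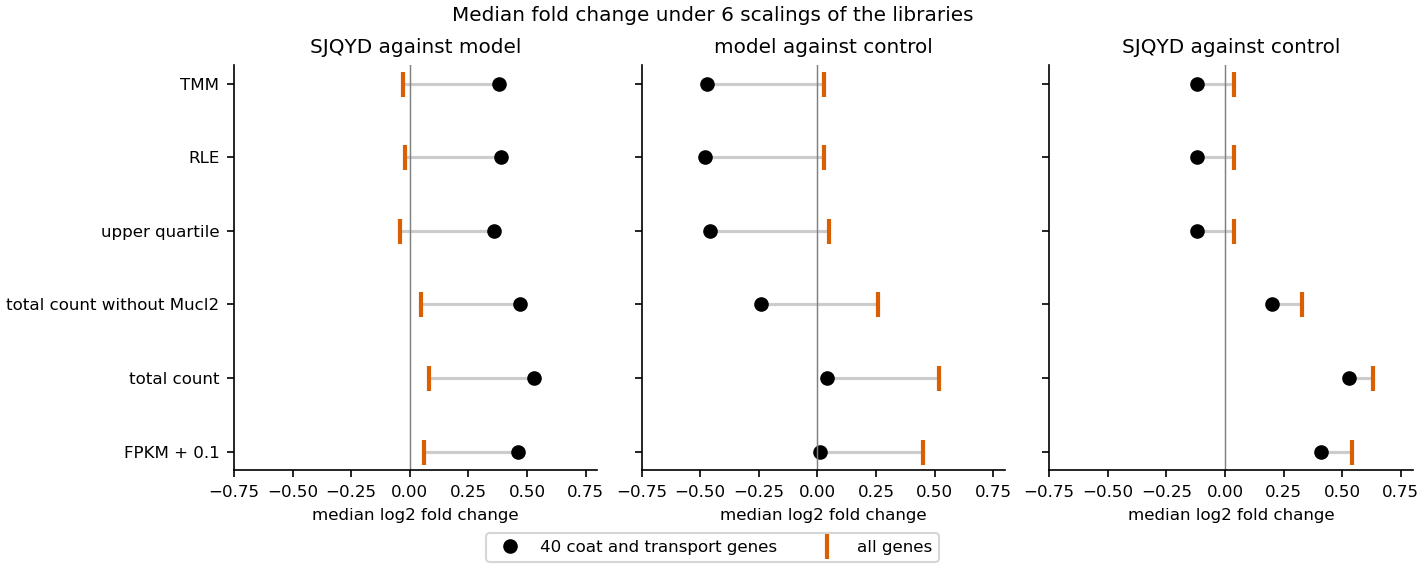
Median log2 fold change of the 40 genes (black points) and of all genes (orange bars) under 6 scalings, 1 panel per comparison. A change of library scaling shifts all genes by nearly the same amount, so the gap between points and bars could hardly change between the count scalings. In model against control the 40 genes are at -0.47 on TMM and 0.04 on total count, and all genes at 0.03 and 0.52, with a gap of -0.50 to -0.44 over these 6 and of -0.28 and -0.03 in the log2(FPKM + 1) fits with and without a filter, which are not drawn, whereas in SJQYD against model the points stay between 0.36 and 0.53.

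Markers of other cells were followed as well. Plasma cell markers, whose cells are rich in this machinery, had a median sum of 1570 CPM in SJQYD, 2040 CPM in model and 310 CPM in control glands. Of the 8 plasma cell markers edgeR called 0 in any comparison, although 6 had an unadjusted p under 0.05 in model against control and 4 in SJQYD against control, and DESeq2 called 3 in each of these. B cell and T cell markers, 4 and 5 genes, summed to medians of 15.8 and 9.80 CPM in SJQYD, 37.2 and 14.5 CPM in model, and 5.14 and 4.28 CPM in control glands. Their groups overlapped, with B cell sums of 27.9 to 60.8 CPM in model and 0.0985 to 53.6 CPM in control libraries. T cell sums were 10.4 to 83.5 CPM in model and 2.05 to 33.9 CPM in control libraries. Of these B cell and T cell markers, edgeR and DESeq2 called 0 in any comparison. At an unadjusted p under 0.05 edgeR gave 1 B cell and 2 T cell markers as higher in model against control, where 2109 of all 18136 genes were higher. Of 5 skeletal muscle markers tested, Tnnt3, Ryr1 and Eno3 were called higher in both NOD groups than in control glands. Muscle markers summed to 20.8 to 38.3 CPM in SJQYD, 21.5 to 38.2 CPM in model and 11.1 to 22 CPM in control libraries. Of 5 red cell markers Hba-a2 was called higher in model than control glands. Red cell markers summed to 162 to 400 CPM in SJQYD, 261 to 360 CPM in model and 73.9 to 290 CPM in control libraries. Of 4 fat markers tested, 0 were called by edgeR or DESeq2, although edgeR gave 1 in SJQYD against control and 2 in model against control at an unadjusted p under 0.05. Fat markers summed to 13.2 to 169 CPM in SJQYD, 13.5 to 237 CPM in model and 7.56 to 23.7 CPM in control libraries. Their part in the differences of the 40 genes was not tested. No marker was at 0 throughout a group except Tnnt3 of muscle and Lep of fat in control libraries. Bhlha15, which marks acinar cells and drives their secretory programme, was the 1 acinus marker called in model against control, with a log2 fold change of -0.57 (adjusted p = 0.0320). With the parotid level as a covariate, 12 genes were called in SJQYD against model and 15 in model against control, and with the sublingual level 10 and 14. The part of acinar cell number in these differences was not tested.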

How the data were processed

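RNA of 15 submandibular glands was sequenced from oligo-dT selected, dUTP-marked libraries with molecular identifiers, per the labels' protocols. Deposited by the authors were raw counts per gene, as whole numbers, and FPKM values per gene. HISAT2 2.0.4 and StringTie 1.3.4d are listed beside cutadapt 1.9, edgeR, DESeq2 and UMI-tools, without their roles, per the submitters' processing notes, as is the build mm9. The coordinates equal GRCm38 (GENCODE vM21) for 34 of the 40 genes. Counts of 4 were more frequent (14040) than counts of 3 (8483) or 5 (4460), so that counts were not read as molecules.

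Counts were fitted in R 4.3.3 with edgeR 4.0.16, using TMM factors, the default filter by group, a robust quasi-likelihood fit with 1 mean per group over all 15 libraries and Benjamini-Hochberg adjustment over the 18136 genes tested. Groups were taken from the sample titles. CPM in the text are scaled by TMM. DESeq2 1.42.0 and limma 3.58.1 on log2(FPKM + 1) and log2(FPKM + 0.1) served as alternatives, the scale on which those fold changes stand. Other alternatives were other scalings and filters, a stricter threshold, fits of only the groups compared, a replicate block, leaving out libraries, and parotid or sublingual levels as covariates. The fit was tested on simulated data. No library was a copy of another (at least 75.4 chi-square per gene within groups). Motifs were counted with Python 3.11.15.

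Values in every library are given for the 16 called genes with the smallest adjusted p and for Creb3l2, Sec23a, Sec23b, the KDEL receptors and Lman1, and for Sar1a, chosen after its values were seen, means for the other called genes, and counts and ranges for the rest. The genes and lists were chosen with earlier results of these data known.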

Additional observations from a re-analysis of the deposited data

Results flagged for a closer look

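In the 120 sets of 5 libraries formed by 40 genes and 3 groups, 10 had a library whose gap to its nearest neighbour exceeded 0.71 of the range. Chance marks about 1 in 20 such sets. In SJQYD 1, the library with the lowest Mucl2 share, this held for Preb at 139 CPM (next value 89 CPM), Copz1 at 117 CPM (next value 78.2 CPM) and Sec24c at 92.4 CPM (next value 75.4 CPM). In SJQYD 5, Kdelr2 was low at 41.4 CPM (next value 57 CPM). Model 4 was high for Sar1b at 29 CPM (next value 19.1 CPM) and Sec24d at 19.7 CPM (next value 12.3 CPM), and it held the most sublingual markers of its group. Model 3 was high for Copz1 at 77.1 CPM (next value 57.9 CPM), and model 2 was low for Stx5a at 34.5 CPM (next value 42.2 CPM). Control 4 was high for Kdelr3 at 22.2 CPM (next value 12.8 CPM), and control 2 was low for Sar1b at 18.4 CPM (next value 30 CPM). The part of other tissue in these values was not tested.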

How the results depend on the processing

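Counts of called genes among the 40 were 15 in model against control, 10 in SJQYD against model and 8 in SJQYD against control. RLE and upper quartile factors gave 15, 10 and 7 or 8, and DESeq2 gave 22, 14 and 11, each within 1.5 times. With total-count scaling the counts were 0, 0 and 15, and with the total without Mucl2, chosen after the data were seen, 4, 8 and 11. Without a filter on low counts they were 8, 8 and 5, and at an adjusted p under 0.01 they were 2, 5 and 4. The limma fits on FPKM, with either pseudocount or no filter, gave 0 in model against control, 0 in SJQYD against model, and 12, 12 and 7 in SJQYD against control. A fit of only the 2 groups compared gave 7 in model against control, and leaving out the 3 parotid-rich libraries gave 5 in SJQYD against model. Leaving out 1 library gave 4 to 23 in model against control, 6 to 12 in SJQYD against model and 5 to 12 in SJQYD against control. Paralogue ratios past the exact test, 0 in each comparison, ran from 0 to 0, from 0 to 2 and from 0 to 3 in the same order when 1 library was left out.

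Signs reversed in 15 cases. In model against control, total-count scaling gave 0.02 for Copa, 0.09 for Sec31a and 0.13 for Sar1a, and the FPKM fits gave 0.06 or 0.07 for Sec31a, 0.09 or 0.10 for Sar1a and 0.01 for Sec24a. In SJQYD against control, total-count scaling gave 0.15 for Arf4 and 0.05 for Tmed10, and the FPKM fits gave 0.07 for Arf4. In SJQYD against model 0 of the 10 called genes changed sign in any alternative run. Over all genes the median was 0.52, 0.08 and 0.63 in the 3 comparisons with total-count scaling, against 0.03, -0.03 and 0.04 with TMM. In the FPKM fit without a filter, which held 3 of the reversals, it was 0.04, 0.00 and 0.05. The cause of the reversals was not tested. In SJQYD against control the median of the 40 genes minus that of all genes was 0.03 and 0.29 in limma on log2(FPKM + 1) with and without the filter.

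Over all genes, 920 were called in model against control (466 higher), and 1565 (1523 higher) with total-count scaling, 1779 with DESeq2, 466 with only the 2 groups, 1464 (1422 higher), 1999 (1955 higher) and 511 (474 higher) with the FPKM fits, 838 (723 higher) with the total without Mucl2, 1507 without the 3 parotid-rich libraries and 186 at an adjusted p under 0.01. For SJQYD against model the 498 calls became 43, 1058, 66, 52, 43 and 160 with total count, DESeq2, the FPKM fits and the stricter threshold, 755 with the parotid level as a covariate, 298 with the total without Mucl2 and 186 without the 3 parotid-rich libraries. For SJQYD against control the 2017 calls (947 higher) became 4679 (4579 higher) with total count, 3643 (3554 higher) and 4065 (3971 higher) with the filtered FPKM fits, 2781 (2492 higher) with the total without Mucl2 and 664 at the stricter threshold.

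The labels number the replicates alike in each group, but same-numbered libraries deviated together with a correlation over 0.1 in only 2 of 15 pairs (-0.226 to 0.160), and 4 of 15 libraries correlated best with their own number, so the numbers were not taken as pairs. The replicate block gave 15, 10 and 7 calls among the 40 genes, of which 13, 9 and 7 were the genes called without it. With the block, the exact sign-flip test of the ratios passed 0 pairs in each comparison, its smallest possible p being 0.0625.

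The groups hold 5 libraries each, so that differences of about 3 SE could miss the threshold, as for Copg1 in model against control (-0.33 ± 0.10, adjusted p = 0.0684 in edgeR), and Sec31b, at about 1 CPM, could not be read for change.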
